A study of Mus musculus with 6 samples.

Results

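Transcripts of 55 genes of the kinetochore, the spindle assembly checkpoint and mitotic exit were followed in the tips and stalks of the ureteric epithelium of the fetal mouse kidney, whose branches become the collecting ducts. The genes were taken by symbol from a list chosen for their roles in mitosis, and all 55 were found among the 21456 symbols with values. The list was chosen with earlier results of these data known. All libraries came from kidneys of CFW mice at E16.5 (the embryonic day), and all cells carried the Hoxb7GFP reporter, in which the Hoxb7 promoter marks the ureteric epithelium. Tip cells were Wnt11RFP+;Hoxb7GFP+ (n = 3 libraries) and stalk cells were Wnt11RFP-;Hoxb7GFP+ (n = 3 libraries), so the sort rests on Wnt11, a gene of the growing tips. The labels do not say whether the libraries of a group came from separate animals, so p-values measured only how far these libraries spread, and that spread may be technical. Values are RPKM (read counts scaled by transcript length and library size) as deposited by the authors, summed over the rows of each symbol, and the sequencing depth behind them is unknown.

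In mitosis each chromosome is attached to the spindle through its kinetochore, a protein assembly built on centromeric chromatin that contains the histone variant CENP-A. The inner kinetochore proteins bind this chromatin, the outer ones bind microtubules, and the spindle assembly checkpoint holds back anaphase until all kinetochores are attached. The checkpoint acts by blocking CDC20, an activator of the anaphase promoting complex (APC/C), a ubiquitin ligase whose substrates include securin and the mitotic cyclins. Many of these genes are transcribed mainly in the G2 and M phases, and their level in a tissue is commonly read as a sign of how many cells are dividing.

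The sorted libraries carried the markers of their labels. The 8 tip markers examined, among them Ret and Wnt11, the gene of the sort, were all higher in tip, and the 8 stalk markers, among them Aqp2 and Upk3a, were all higher in stalk. General ureteric genes were present in both groups, Pax2 having means of 99.9 RPKM (tip) and 85.7 RPKM (stalk) and Epcam of 387 and 297 RPKM. Of the 11 such genes, 3 were higher in tip (Epcam, Lhx1 and Calb1), 4 were higher in stalk (Cdh1, Gata3, Krt8 and Krt18) and 4 were not called. Summed over 11 endothelial markers, the level was 19.4 to 20.1 RPKM in the tip libraries and 60.3 to 98.4 RPKM in the stalk libraries, with 9 of 10 tested higher in stalk and Eng higher in tip. The sum of 7 nephron progenitor markers was 4.71 to 6.96 RPKM in tip and 2.01 to 3.71 RPKM in stalk, and that of 9 stromal markers was 4.42 to 9.69 and 5.02 to 9.28 RPKM. Summed immune markers were 12.9 to 15.6 RPKM in tip and 12.2 to 19.5 RPKM in stalk. The sum of the 4 erythroid markers with values was uneven between libraries. In replicates 1, 2 and 3 it was 18.3, 12.7 and 72.8 RPKM in tip and 9.20, 84.0 and 23.4 RPKM in stalk. Of these markers 2 were tested and neither was called. Defining genes of nephron progenitors and stroma were near 0, with Six2 at 0.638 and 0.148 RPKM, Foxd1 at 0.393 and 0.156 RPKM, and Tbx18 listed at 0 in tip. The 2 nephron progenitor markers that passed the filter, Cited1 (2.15 against 0.804 RPKM) and Crym (2.23 against 0.512 RPKM), were both higher in tip. Both passed the filter of a mean of at least 1 RPKM only through the tip libraries, so their direction is partly set by the filter. The other nephron progenitor markers were not tested. The part of such cells in the results below was not tested.

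Promoter sequences are shown first, because members that are higher in dividing cells are known to share short elements there. The TTTGAA word of the cell cycle genes homology region (CHR) is bound by the DREAM and MuvB complexes, and CCAAT boxes are bound by NF-Y. The 250 bases before the annotated start were searched on both strands in RefSeq promoters (GRCm38.p6), which hold 54 promoters for 48 of the 55 members, 2 of them (Casc5 and Sgol1) matched through a newer symbol. Spc24, Nsl1, Zwilch, Ska1, Aurkb, Incenp and Tpx2 were not matched. Members higher in tip had 48 promoters from 42 genes. Overlapping windows of a gene were counted apart, so a single TTTGAA word counts in 2 promoters for Ect2 and likewise for Bub3. Of the promoters of members higher in tip, 13 of 48 (27.1%) held TTTGAA, against 10.2% of the promoters of all tested symbols and 16% of the whole table. The word TTTAAA, a variant of the element, was found in 8.33% of them, against 8.4% of the promoters of tested symbols. CCAAT was found in 66.7% of them, against 35.4%, and both TTTGAA and CCAAT in 25%, against 3.99%. The E2F-like words TTCCCGC and TTGGCGC were each found in 8.33%, against 6.99% and 3.52%. No TTTGAA word stood in the 6 promoters of members that were not higher in tip, which says only that these letters are not in those windows. The variant TTTAAA was found in 2 of these 6 (33.3%), and the Zwint sequence below holds it in small letters. No printed match of TTTGAA overlapped one of CCAAT. The sequences below belong to the 4 members with the largest change among those holding TTTGAA, followed by Zwint, the member that went the other way. Capitals mark TTTGAA and CCAAT on either strand, so TTCAAA and ATTGG are the same words read from the other strand. Each is given from 5′ to 3′ along the gene, without most bases that other annotated transcripts include.
Ube2c (chr2:164769706-164769905, plus strand): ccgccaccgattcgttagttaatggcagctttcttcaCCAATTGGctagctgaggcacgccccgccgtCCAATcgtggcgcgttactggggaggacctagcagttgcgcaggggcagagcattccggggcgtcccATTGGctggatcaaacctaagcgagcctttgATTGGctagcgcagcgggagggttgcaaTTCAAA
Ska3 (chr14:57826172-57826249, minus strand): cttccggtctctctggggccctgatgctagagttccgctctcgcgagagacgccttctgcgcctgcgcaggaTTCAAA
Cenpn (chr8:116921537-116921736, plus strand): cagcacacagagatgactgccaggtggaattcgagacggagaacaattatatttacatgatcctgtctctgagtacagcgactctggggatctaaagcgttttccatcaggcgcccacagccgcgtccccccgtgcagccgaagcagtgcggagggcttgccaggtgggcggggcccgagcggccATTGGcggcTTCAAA
Mki67 (chr7:135716380-135716579, minus strand): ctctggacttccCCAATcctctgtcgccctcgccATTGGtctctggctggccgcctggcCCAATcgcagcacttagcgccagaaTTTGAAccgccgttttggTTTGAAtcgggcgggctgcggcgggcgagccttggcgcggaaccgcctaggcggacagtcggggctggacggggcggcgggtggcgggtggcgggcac
Zwint (chr10:72654645-72654844, plus strand): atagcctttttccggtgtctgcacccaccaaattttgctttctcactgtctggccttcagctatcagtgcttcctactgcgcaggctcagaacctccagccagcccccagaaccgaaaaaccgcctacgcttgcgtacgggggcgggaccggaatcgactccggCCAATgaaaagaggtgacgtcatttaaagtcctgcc

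Positions here are counted from the RefSeq start. In Ube2c the CHR word began 29 bases before it, downstream of 6 CCAAT matches in the searched window. The first of these matches lies upstream of the printed stretch. The word began 14 bases before the start in Ska3 and 9 bases before it in Cenpn, where a CCAAT box lay 18 bases before the start. Mki67 held 2 CHR words, beginning at 116 and 98 bases. The Zwint promoter held 1 CCAAT box, 37 bases before the start, and the variant word TTTAAA downstream of it. By the gene starts of GENCODE, a second annotation, the TTTGAA words of Ube2c, Ska3 and Cenpn lie just inside the gene. Those of Mki67 lie before its start in both annotations. Matches are descriptions of letters and do not show binding. Promoters of Cenpt, Cenpo and Pttg1, none of which held TTTGAA or CCAAT in the window, are not printed because most of their bases lie in annotated exons.

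Of the 55 members, all of which passed the filter of a mean of at least 1 RPKM, 49 were higher in tip and 1 was higher in stalk by limma at an adjusted p under 0.05. Among all 12532 symbols tested, 26.1% were higher in tip and 22.5% were higher in stalk. The median log2 fold change of the members, tip minus stalk on the scale of log2(RPKM + 1), was 1.53, against 0.05 over all symbols tested. A log2 fold change of at least 1 was found for 44 members (80%), against 8.29% of all symbols tested. All tip libraries lay above all stalk libraries for 50 members, against 31.3% of all symbols tested, and the reverse held for 1 member, against 26.5%. Ratios of mean RPKM among the members higher in tip ran from 1.32 to 5.49. In bulk RNA, fewer dividing cells and less RNA per dividing cell cannot be told apart.

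**Figure D1:**
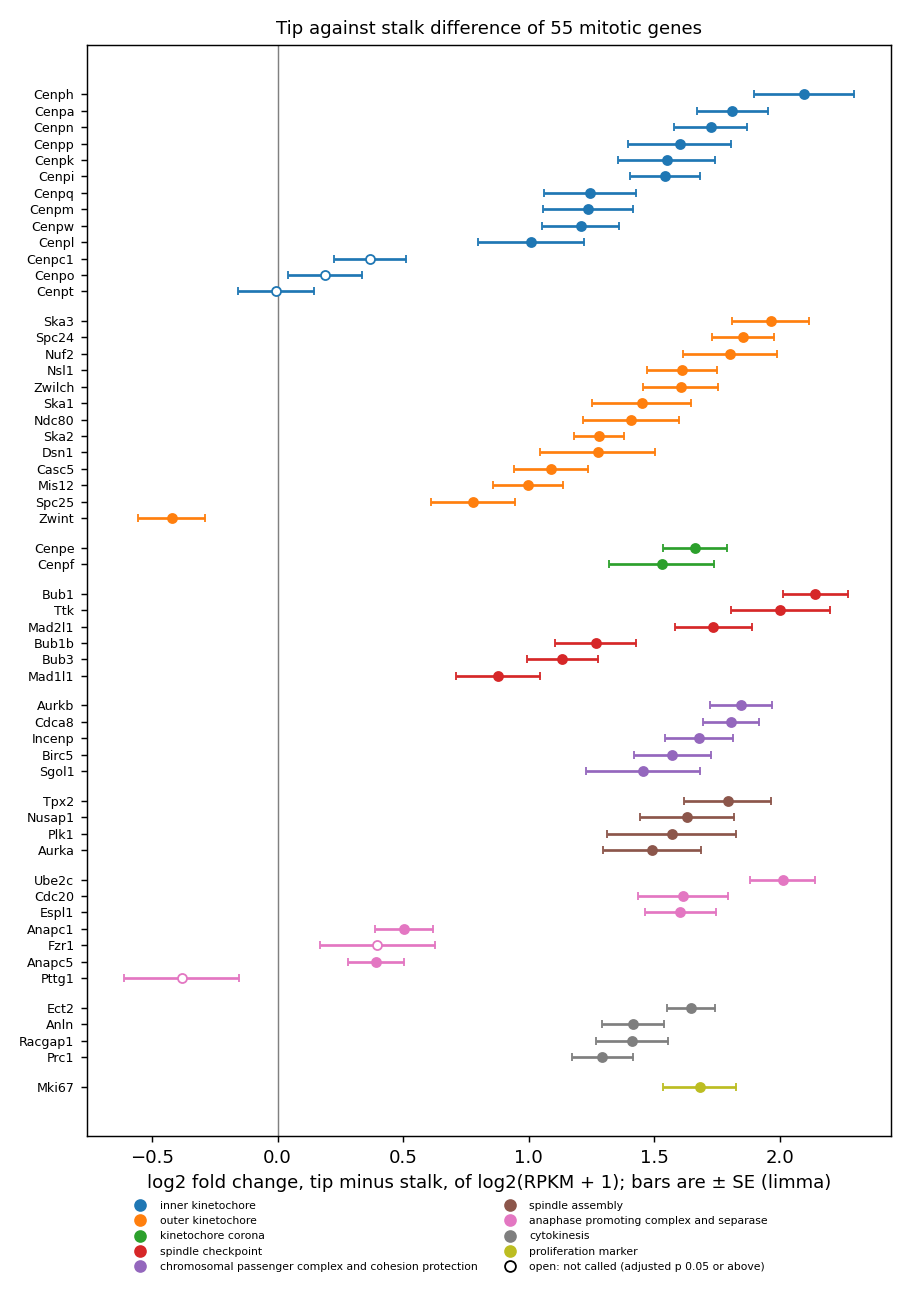
Log2 fold change (tip minus stalk, on log2(RPKM + 1), x axis) with its standard error for each of the 55 genes, grouped and coloured by role. Filled points passed the limma test, and open points did not. Most points lie between 1 and 2, while Zwint and Pttg1 lie below 0 and Cenpt lies next to it.

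The inner kinetochore list holds CENP-A and the constitutive centromere-associated network that binds it, and 10 of its 13 genes were higher in tip while 3 were not called (median log2 fold change 1.25). Cenpa, which encodes the centromeric histone itself, was the most abundant. It stood at 74.9, 57.6 and 63.4 RPKM in tip replicates 1, 2 and 3 and at 14.9, 19.9 and 18.9 RPKM in the stalk replicates. The groups were far apart, with a log2 fold change of 1.81 (SE 0.14, adjusted p = 3.02e-05). Cenph, a network subunit, changed most in the list, from 4.70, 2.89 and 5.14 RPKM in stalk to 25.3, 17.9 and 20.5 RPKM in tip (log2 fold change 2.10, SE 0.20, adjusted p = 7.84e-05). Its lowest tip library was above its highest stalk library by several fold. Cenpn, whose product recognises CENP-A nucleosomes, Cenpi, Cenpk and Cenpp lay between 1.55 and 1.72, and Cenpq, Cenpm, Cenpw and Cenpl between 1.01 and 1.25.

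The 3 inner genes that were not called were Cenpc1, Cenpt and Cenpo. Cenpc1, whose product links CENP-A chromatin to the MIS12 complex, stood at 9.96, 8.20 and 7.79 RPKM in tip and 7.32, 5.66 and 6.44 RPKM in stalk. Its groups did not overlap, but the difference of 0.37 (SE 0.14) missed the threshold (adjusted p = 0.0614) and passed it without stalk replicate 1 (0.45, adjusted p = 0.0427; range over its alternatives 0.0426 to 0.211). Cenpt, which provides the other link to the NDC80 complex, was at 8.20, 7.01 and 8.39 RPKM in tip and 6.65, 7.68 and 9.55 RPKM in stalk. These values interleaved, with a difference of -0.01 (SE 0.15, adjusted p = 0.975). Cenpo was at 5.50, 4.19 and 4.59 RPKM in tip and 3.84, 4.63 and 3.67 RPKM in stalk, also overlapping (0.19, SE 0.15, adjusted p = 0.323). Exons of Cenpt and Cenpo share bases with genes of the opposite strand (Tsnaxip1, and Adcy3 and Ptrhd1), and since the use of strand is not given in the sources used here, reads of those genes cannot be told apart from theirs. The same holds for 17 of the 55 members in all, among them Ube2c (with Tnnc2), Ska3 (with Sap18), Nusap1, Cdca8, Plk1, Prc1, Mis12, Mad1l1 and Zwilch, whose values are uncertain to that extent.

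Outer kinetochore genes, which encode the microtubule-binding NDC80, MIS12 and KNL1 complexes and the SKA complex, were higher in tip in 12 of 13 cases and higher in stalk in 1 (median 1.41). Ska3, a subunit of the SKA complex that follows depolymerising microtubules, stood at 12.1, 10.3 and 12.4 RPKM in tip and 2.73, 1.77 and 2.23 RPKM in stalk (log2 fold change 1.96, SE 0.15, adjusted p = 3.17e-05). Ska1 (1.45) and Ska2 (1.28) were also higher in tip. The 4 genes of the NDC80 complex, whose proteins join in equal parts, were all higher in tip, with changes of several sizes that were not tested against each other. Spc24 stood at 32.9, 26.2 and 32.3 RPKM in tip and 7.73, 7.03 and 8.28 RPKM in stalk, a 3.97-fold ratio (log2 fold change 1.85, SE 0.12, adjusted p = 1.72e-05). Nuf2 (1.80) and Ndc80 (1.41) followed, and Spc25, at 28.1 ± 4.12 against 16.1 ± 3.45 RPKM (mean ± SD, n = 3 libraries), had the smallest change at 0.78 (SE 0.17). Nsl1 (1.61), Dsn1 (1.28) and Mis12 (0.997) of the MIS12 complex and Zwilch (1.61) of the ROD-ZW10-ZWILCH complex, which recruits dynein and the checkpoint proteins, were higher in tip. Casc5, the gene now named Knl1, whose product is the scaffold on which the BUB proteins assemble, was the least abundant member in tip at 4.25 ± 0.532 RPKM and stood at 1.46 ± 0.122 RPKM in stalk (log2 fold change 1.09).

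Zwint, which encodes a binding partner of KNL1 that helps to bring ROD-ZW10-ZWILCH to the kinetochore, was the 1 member higher in stalk. It stood at 48.7, 39.6 and 36.9 RPKM in stalk and at 28.8, 34.9 and 28.7 RPKM in tip. Every stalk library was above every tip library, but the closest pair, stalk replicate 3 and tip replicate 2, differed little. The log2 fold change was -0.42 (SE 0.13, adjusted p = 0.0291). The call was lost without stalk replicate 1 (-0.31, adjusted p = 0.0694), without tip replicate 1 (-0.38, adjusted p = 0.0977) and without tip replicate 3 (-0.37, adjusted p = 0.0980). It was also lost with a replicate block (adjusted p = 0.0579) and without the filter (adjusted p = 0.0675), at the same fold change, with a range of 0.0141 to 0.0980 over its alternatives. Zwint ranked 11 among the 55 members by mean RPKM in tip and 2 in stalk. Within a library, the log2 ratio of Zwint to Casc5 was 2.35, 2.89 and 2.56 in tip and 4.41, 3.97 and 3.95 in stalk. The groups did not overlap, and the exact two-sided permutation test gave p = 0.1, the smallest that 3 against 3 libraries allow. This ratio had 1 RPKM added to each value, which lowers it most where Casc5 is low, and it was chosen after the values were seen. Zwint was higher in every stalk library and Casc5 in every tip library, so the lack of overlap was certain.

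The kinetochore corona genes Cenpe, a kinesin that carries chromosomes toward the spindle equator, and Cenpf, a large coiled-coil protein of late G2, were both higher in tip. Cenpe was at 11.7, 9.90 and 11.3 RPKM in tip and 2.67, 3.04 and 2.62 RPKM in stalk (1.66, SE 0.13, adjusted p = 2.92e-05). Cenpf was at 9.36, 5.59 and 8.53 RPKM in tip and 1.47, 2.17 and 2.44 RPKM in stalk (1.53, SE 0.21, adjusted p = 0.000537). Tip replicate 2 was the lowest tip library for both genes and still stood above every stalk library.

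All 6 checkpoint genes were higher in tip, with a median of 1.501. Bub1, a kinase that recruits other checkpoint proteins to the kinetochore (chromosome 2, 127801122 to 127831865, minus strand, mm10), had the largest log2 fold change of all members at this pseudocount. It was at 20.8, 16.0 and 18.5 RPKM in tip and 3.63, 3.23 and 3.28 RPKM in stalk, a 5.45-fold ratio (log2 fold change 2.14, SE 0.13, adjusted p = 1.22e-05). Ttk, which encodes the MPS1 kinase at the head of the checkpoint, was at 11.7, 9.16 and 10.6 RPKM in tip and 2.24, 1.15 and 2.34 RPKM in stalk (2.003, SE 0.20, adjusted p = 9.24e-05). Its ratio of means, 5.49, was above that of Bub1, as was its log2 fold change with a pseudocount of 0.1 (2.45 against 2.41), while with a pseudocount of 5 that of Ube2c (1.87) was above that of Bub1 (1.48). Neither gene showed any overlap between the groups. Mad2l1 (1.73) and Bub1b (1.27), which encode subunits of the mitotic checkpoint complex that inhibits CDC20, were also higher in tip. Bub3, another subunit of that complex, was the most abundant, at 55.4, 40.3 and 50.6 RPKM in tip and 18.8, 23.4 and 22.6 RPKM in stalk (1.13, SE 0.14, adjusted p = 0.000314). Mad1l1, which anchors MAD2 at the kinetochore, had the smallest change of the checkpoint genes, at 15.3 ± 1.88 against 7.98 ± 1.93 RPKM (0.88, SE 0.17).

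The chromosomal passenger complex, which corrects faulty attachments, was represented by its kinase gene Aurkb and by Incenp, Birc5 and Cdca8. These 4 and Sgol1, which encodes a protector of centromeric cohesion, were all higher in tip (median 1.68). Aurkb was at 33.0, 25.3 and 31.2 RPKM in tip and 7.25, 7.47 and 7.91 RPKM in stalk (1.84, SE 0.12, adjusted p = 1.75e-05). Cdca8, which encodes borealin, was at 46.6, 41.3 and 42.2 RPKM in tip and 10.5, 12.9 and 11.8 RPKM in stalk (1.81, SE 0.11, adjusted p = 1.22e-05). Birc5, which encodes survivin, was at 53.0, 39.7 and 44.7 RPKM in tip and 11.97, 15.3 and 17.1 RPKM in stalk (1.57, SE 0.15, adjusted p = 9.23e-05). The 4 genes of this complex differed between the groups by ratios of 3.10 to 3.96, a narrower range than the 1.75 to 4.03 of the 4 NDC80 complex genes, although the difference between the ranges was not tested.

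Spindle assembly genes were all higher in tip as well (4 of 4, median 1.6). Tpx2, an activator of Aurora A, was at 32.9, 23.2 and 27.4 RPKM in tip and 6.28, 6.57 and 9.18 RPKM in stalk (1.79, SE 0.17, adjusted p = 8.29e-05). Nusap1, a microtubule-bundling protein gene, was at 20.3, 15.4 and 20.1 RPKM in tip and 4.24, 4.84 and 7.10 RPKM in stalk (1.63, SE 0.19, adjusted p = 0.000206). The kinase genes Plk1 (1.57, SE 0.26) and Aurka (1.49, SE 0.19) were also higher in tip. In all 4 genes stalk replicate 1 was the lowest stalk library and stalk replicate 3 the highest.

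**Figure D2:**
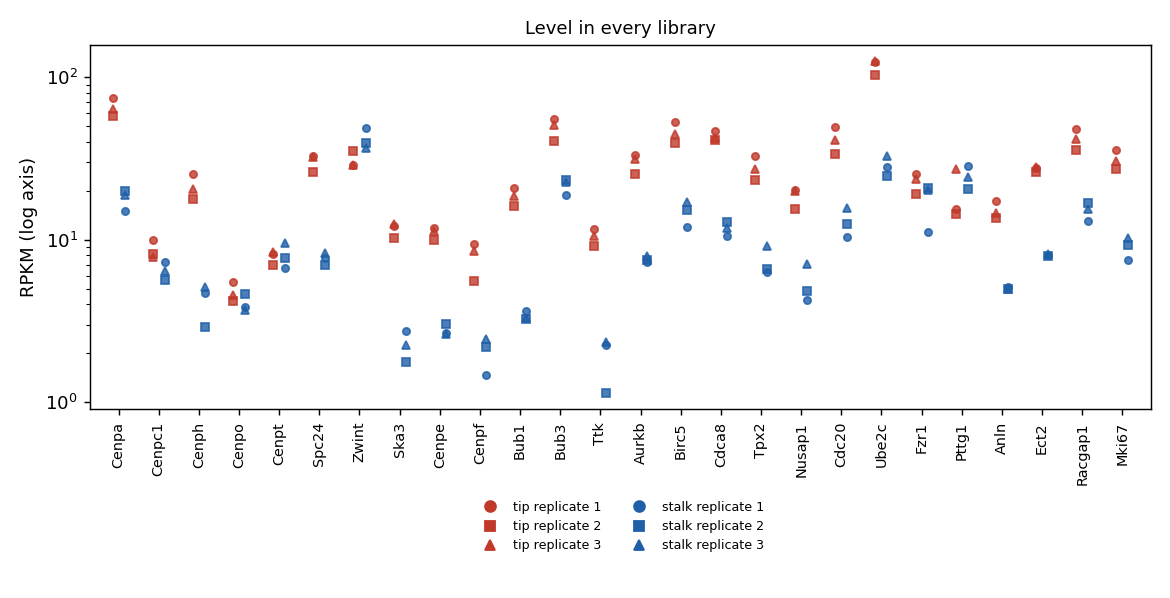
RPKM (y axis, log scale) in each of the 6 libraries for 26 of the genes, with tip libraries in red and stalk libraries in blue and 1 marker shape per replicate number. Red and blue points are apart for most genes and interleave for Cenpo, Cenpt, Fzr1 and Pttg1, while Zwint is inverted.

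The APC/C and anaphase list was mixed, as 5 of 7 genes were higher in tip and 2 were not called (median 0.50). Ube2c, which encodes the ubiquitin-conjugating enzyme that starts chains on APC/C substrates (chromosome 2, 164769898 to 164778822, plus strand), was the most abundant member in tip. It was at 124, 103 and 126 RPKM in tip and 28.2, 24.5 and 32.7 RPKM in stalk (2.01, SE 0.13, adjusted p = 1.56e-05). Cdc20, the activator that the checkpoint restrains, was at 49.7, 33.7 and 41.0 RPKM in tip and 10.3, 12.5 and 15.7 RPKM in stalk (1.62, SE 0.18, adjusted p = 0.000178). Both genes were apart in every library. Espl1, which encodes separase, the protease that cuts cohesin at anaphase, was also higher in tip (9.80 ± 1.20 against 2.55 ± 0.347 RPKM, log2 fold change 1.605).

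Core subunits of the ligase had smaller changes. Anapc1, its scaffold, differed by 0.50 (SE 0.11, adjusted p = 0.00709). Anapc5 had means of 72.6 ± 8.10 RPKM (tip) and 55.01 ± 5.11 RPKM (stalk), and in stalk it was the most abundant member (0.39, SE 0.11, adjusted p = 0.0207). The Anapc5 call was lost without tip replicate 1 (adjusted p = 0.0823) and without stalk replicate 2 (adjusted p = 0.0667), within a range of 0.0210 to 0.0823 over its alternatives. Of 23 further APC/C and mitotic exit genes, 10 were higher in tip and 13 were not called, with a median of 0.26. Among the 12 APC/C subunits of this list, 4 were higher in tip (Anapc15, Cdc27, Anapc4 and Cdc23, at 0.78, 0.59, 0.43 and 0.36), against 26.1% of all symbols tested. The other 8 were not called, such as Anapc7 (0.01, adjusted p = 0.941), Anapc2 (-0.27, adjusted p = 0.160). The phosphatase gene Ppp1ca, the most abundant of the list, was not called either (0.23, adjusted p = 0.0753). The phosphatase gene Cdc14b changed most, with 8.92 ± 0.948 RPKM among tip libraries against 2.36 ± 0.287 among stalk libraries (1.56, adjusted p = 5.88e-05). Fbxo5, which encodes the APC/C inhibitor EMI1, was also higher in tip (1.497, adjusted p = 0.0015).

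Fzr1 encodes CDH1, the activator that takes over from CDC20 in late mitosis and keeps the ligase active in G1. It was at 25.2, 19.0 and 23.7 RPKM in tip and 11.1, 20.9 and 20.4 RPKM in stalk. Stalk replicates 2 and 3 lay within the tip range, and only stalk replicate 1 was low. The difference of 0.40 (SE 0.23) was not called (adjusted p = 0.183), and it passed the test when only the most abundant row of each symbol was used (0.60, adjusted p = 0.0318; range over its alternatives 0.0318 to 0.501). Within a library, the log2 ratio of Cdc20 to Fzr1 was 0.95, 0.79 and 0.77 in tip and -0.10, -0.69 and -0.35 in stalk. For this ratio too 1 RPKM was added to each value. The difference between the group means was 1.22 (exact two-sided permutation p = 0.1, the smallest possible). The sign in stalk depended on the rows summed. With only the most abundant row of each symbol the ratio was 1.75, 1.495 and 1.28 in tip and 0.55, 0.40 and 0.58 in stalk, above 0 in all libraries, and the groups still did not overlap. Exons of Cdc20 and Fzr1 each share bases with a gene of the opposite strand, Elovl1 and Mfsd12.

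Pttg1 encodes securin, the inhibitor of separase (chromosome 11, 43420250 to 43426251, minus strand). It was at 15.5, 14.4 and 27.3 RPKM in tip and 28.4, 20.5 and 24.4 RPKM in stalk. Tip replicates 1 and 2 lay below all stalk libraries, and tip replicate 3 lay within the stalk range. The difference of -0.38 (SE 0.23) was not called (adjusted p = 0.204). Without tip replicate 3 it was called higher in stalk (-0.66, adjusted p = 0.0145), as it was when only the most abundant row was used (-0.58, adjusted p = 0.0343; range over its alternatives 0.0145 to 0.729). Pttg1 ranked 26 among the members in tip and 4 in stalk. The log2 ratio of securin to separase transcripts, Pttg1 to Espl1, was 0.45, 0.65 and 1.44 in tip and 3.17, 2.64 and 2.69 in stalk, a difference of -1.99 between the group means (exact two-sided permutation p = 0.1, the smallest possible). This ratio too had 1 RPKM added to each value and was chosen after the values were seen.

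**Figure D3:**
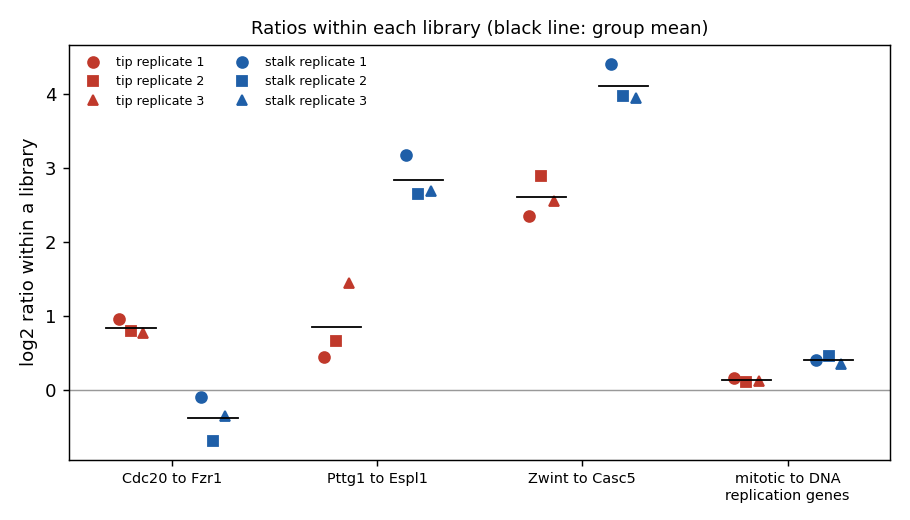
Log2 ratio within each library (y axis) of Cdc20 to Fzr1, Pttg1 to Espl1, Zwint to Casc5, and the summed mitotic genes to the summed DNA replication genes, with tip libraries in red, stalk libraries in blue and group means as black lines. The groups do not overlap in any of the 4 ratios. Those of Pttg1 to Espl1 and Zwint to Casc5 were chosen after the values were seen, so their lack of overlap is no test. The Cdc20 to Fzr1 ratio is below 0 in stalk here but above 0 there when only the most abundant row of each gene is used. In the ratios of single genes 1 RPKM was added to each value, and nothing was added to the sums.

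Cytokinesis genes were higher in tip in 4 of 4 cases (median 1.41). Relative to their means, Ect2 and Anln spread least of all members in stalk. The spread of Racgap1 in tip (SD 15.1% of the mean) was above the members' median there (13.3%). Ect2, which encodes the exchange factor that activates RhoA at the division plane, was at 27.6, 26.2 and 27.9 RPKM in tip and 7.995, 7.90 and 8.12 RPKM in stalk (1.65, SE 0.10, adjusted p = 1.02e-05). These are sums of 10 rows, and the most abundant row was less even, at 3.56, 1.61 and 5.76 RPKM in stalk. Anln, which encodes the scaffold anillin of the contractile ring, was at 17.3, 13.7 and 14.5 RPKM in tip and 5.15, 4.97 and 4.94 RPKM in stalk (1.42, SE 0.12, adjusted p = 5.26e-05). Racgap1, a subunit of centralspindlin, was at 48.2, 35.5 and 41.9 RPKM in tip and 13.0, 16.9 and 15.4 RPKM in stalk (1.41, SE 0.14, adjusted p = 0.000105). No group overlapped the other in any of the 3, and Prc1, which bundles the central spindle, was also higher in tip (1.29). Mki67, the proliferation marker whose product coats mitotic chromosomes, was at 35.6, 27.1 and 30.7 RPKM in tip and 7.53, 9.27 and 10.3 RPKM in stalk, a 3.45-fold ratio (1.68, SE 0.14, adjusted p = 5.07e-05).

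Further genes of the same pathways were compared from lists chosen for their function, with earlier results of these data known. Among other kinetochore and centromere genes, 16 of 22 tested were higher in tip and 6 were not called (median 1.21). The CENP-A loading gene Oip5 changed most, with 9.17 ± 2.11 RPKM among tip libraries against 1.34 ± 0.636 among stalk libraries (2.13, adjusted p = 0.000171), although its exons share bases with those of Nusap1 on the opposite strand. The loading genes Mis18a (1.64) and Hjurp (1.24) were also higher in tip, whereas the most abundant gene of the list, Cenpb, a centromeric DNA-binding protein gene, was not called (-0.25, adjusted p = 0.364). Condensin and cohesin genes were higher in tip in 18 of 20 cases, with a median of 0.82. The condensin gene Ncapg had 18.3 ± 2.15 RPKM among tip libraries against 3.18 ± 0.692 among stalk libraries (2.22, adjusted p = 2.29e-05), and the cohesin gene Rad21, the most abundant, had 85.4 ± 2.13 against 67.4 ± 1.95 RPKM (0.34, adjusted p = 0.00928).

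Of 13 other cytokinesis genes tested, 5 were higher in tip, 3 were higher in stalk and 5 were not called (median 0.19). These counts are near the shares over all symbols tested, 26.1% and 22.5%, and are no result about the list. Those higher in tip were the mitotic kinesin genes Kif4 (1.80), Kif20a (1.67) and Kif23 (0.69), the midbody gene Cep55 (1.38) and the kinase gene Cit (1.03). The 3 higher in stalk were Chmp4b, Pdcd6ip and Vps4b, whose products act in membrane scission. Chmp4b had 109 ± 3.19 RPKM among stalk libraries against 69.3 ± 6.46 among tip libraries (-0.64, adjusted p = 0.000837), Pdcd6ip differed by -0.61 (adjusted p = 0.00169) and Vps4b by -0.38 (adjusted p = 0.0129). Tsg101 (0.19, adjusted p = 0.202) and Vps4a (0.27, adjusted p = 0.0502), of the same machinery, were not called and had values above 0.

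Genes of DNA replication were compared to see whether S phase and mitotic transcripts differed by the same factor. All 36 rose in tip relative to stalk (median 1.56), of which Mcm10 (2.08), a replication initiation gene, changed most and Pcna, the sliding clamp gene, was the most abundant (1.38, adjusted p = 1.89e-05). The summed level of the 55 mitotic genes was 1381, 1102 and 1273 RPKM in tip and 470.7, 494 and 533 RPKM in stalk, a 2.51-fold ratio of the means. That of the replication genes was 1239, 1023 and 1174 RPKM in tip and 356, 362 and 417 RPKM in stalk, a 3.03-fold ratio. The log2 ratio of the mitotic to the replication sum was 0.16, 0.11 and 0.12 in tip and 0.40, 0.45 and 0.35 in stalk. The groups did not overlap (difference -0.28, exact two-sided permutation p = 0.1, the smallest possible). The medians of single genes were close, at 1.53 for the mitotic and 1.56 for the replication genes. The difference of the sums turned when 5 members of small change (Anapc5, Zwint, Pttg1, Fzr1 and Anapc1) were left out. They were chosen after their values were seen, and Cenpt, Cenpo and Cenpc1, which also changed little, were kept. Leaving such members out of the mitotic sum alone can only raise its ratio in tip relative to stalk, so the turn tests nothing. The other 50 members then differed 3.14-fold, and the log2 ratio to the replication sum ran from -0.12 to -0.04 in tip and from -0.18 to -0.06 in stalk, with overlapping groups.

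**Figure D4:**
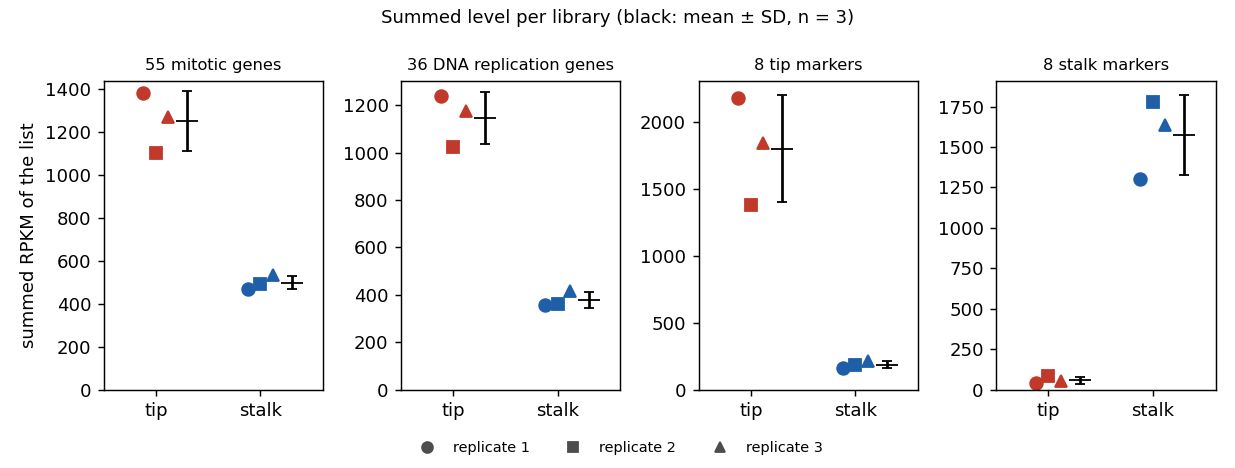
Summed RPKM (y axis, from 0) of the 55 mitotic genes, 36 DNA replication genes, 8 tip markers and 8 stalk markers in each library, with black bars for the mean ± SD of 3 libraries. Tip replicate 2 is the lowest tip library in the mitotic, replication and tip marker sums, and the highest tip library in the stalk marker sum.

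Many members had their lowest or highest level in the same tip library, and this was less marked in stalk. Tip replicate 2 was the lowest tip library for 46 of 55 members (83.6%), against 46.1% of all symbols tested, and tip replicate 1 was the highest for 42 (76.4%), against 34.9%. In the same libraries the summed tip markers were 2186, 1382 and 1843 RPKM in replicates 1, 2 and 3, and the summed stalk markers were 38.4, 80.9 and 54.96 RPKM. In stalk, replicate 3 was the highest library for 28 members (50.9%), against 37.1% of all symbols tested. Stalk replicate 1 was the lowest for 27 members (49.1%), near the 50.6% of all symbols tested. In stalk replicates 1, 2 and 3 the summed stalk markers were 1301, 1781 and 1636 RPKM and the summed tip markers were 163, 185 and 214 RPKM. Replicate 1 was thus the lowest stalk library in both marker sums. The order of the libraries by the members' sum was therefore the same as by the tip marker sum in each group, and the part of tip cells among sorted stalk cells, or of stalk cells among sorted tip cells, was not tested. Without tip replicate 2 and stalk replicate 1, 50 members passed the test toward tip, and the members' median change was 1.56 on the log2 scale.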

How the data were processed

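Messenger RNA libraries (Qiagen RNeasy micro and Kapa stranded mRNA kits, per the labels' protocols) were deposited by the authors as 1 table of RPKM values. Demultiplexing with bcl2fastq 2.17, TopHat2, the Partek software and the mm10 build are listed in the submitters' processing notes. The annotation, the settings and the use of strand are not given in the sources used here. Of 93615 rows, 24545 held a question mark in all columns and were dropped, and the other 69070 were summed by symbol. Of the members, 38 had more than 1 row, which may share reads.

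Symbols with a mean of at least 1 RPKM were tested with limma 3.58.1 (R 4.3.3) on log2(RPKM + 1), with group as the only term and a variance trend, two-sided, with Benjamini-Hochberg adjustment over all symbols. The model was tested on simulated data in which libraries varied independently and far fewer symbols changed than were called here. That test does not vouch for the calls. The log2 scale with this pseudocount understates changes of low genes. Ratios within libraries were compared by exact permutation (scipy 1.17.1). Those of single genes had 1 RPKM added to each value, and the ratio of sums had nothing added. Coordinates are from GENCODE (mm10). The members and lists were chosen with earlier results of these data known. Library values are given, in each role, for the 2 largest changes, the most abundant member, and each member not called or higher in stalk. From the other lists, the largest called changes and the most abundant gene are named, and others were chosen after their values were seen. Alternatives changed the scaling, pseudocount, filter, rows, variance trend, replicate block and libraries.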

Additional observations from a re-analysis of the deposited data

How the results depend on the processing

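Across the alternatives, 41 to 50 of the members tested were higher in tip, the lowest count coming from a minimum mean of 5 RPKM, under which 46 were tested. Of the 49 genes higher in tip, 48 were called in every alternative that tested them, the exception being Anapc5. Of 871 pairs of a member and an alternative, 857 kept their direction and side of the threshold, 7 lost the call, 5 gained it and 2 changed sign, both of Cenpt, which was called in none (0.07 without tip replicate 2 and 0.12 without stalk replicate 3, in a range of -0.11 to 0.12 with 1 library left out). The count of members higher in stalk by limma was 2 with the most abundant row per symbol, 0 without the filter and 0 with a replicate block, and it ranged from 0 to 1 with 1 library left out. In each alternative with a count of 0, 1 member had an unadjusted p under 0.05 toward stalk. The median log2 fold change of the members was 1.70 with a pseudocount of 0.1 and 1.003 with a pseudocount of 5. The log2 ratio of Pttg1 to Espl1 differed by -1.29 with a pseudocount of 5, and that of Zwint to Casc5 by -1.91 with a pseudocount of 0.1 and -0.90 with a pseudocount of 5. Leaving Anapc5, Zwint, Pttg1, Fzr1 and Anapc1 out of the mitotic sum was an alternative chosen after seeing the data. It turned the tip minus stalk difference of the log2 ratio to the replication sum from -0.28 to 0.049, a move that was upward by construction.

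Libraries with the same replicate number did not deviate together (correlations of -0.30, -0.34 and 0.09), so the numbers were not treated as pairs. Across different numbers the correlations of tip replicate 2 were 0.56 with stalk replicate 1 and -0.33 with stalk replicate 3. Those of tip replicate 3 were 0.40 with stalk replicate 2 and -0.44 with stalk replicate 1. For tip replicate 1 they were 0.33 with stalk replicate 3 and 0.05 with stalk replicate 2. A pairing under other numbers was not tested. With the replicate block 5096 of all symbols were called, against 6089 without it, and 49 members were higher in tip. Scaling each library by its median ratio called 3009 symbols toward tip and 3143 toward stalk, with 49 members higher in tip. Depth is unknown, so counting error could not be separated from the spread between libraries.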

Other observations

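The order of the members by level differed between the groups. In tip the most abundant were Ube2c, Anapc5, Cenpa, Bub3 and Birc5, and in stalk they were Anapc5, Zwint, Ube2c, Pttg1 and Bub3. Of these, Zwint was higher in stalk, Pttg1 was not called, and Anapc5 was higher in tip by 0.39 on the log2 scale. Fzr1 ranked 19 in tip and 7 in stalk, and Anapc1 ranked 24 and 10.

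The rows of a symbol carry no transcript identifier, and their values are estimates that may share reads. Pttg1 had 10 rows. Its most abundant row held 11.7, 12.3 and 17.6 RPKM in tip and 24.7, 17.7 and 20.5 RPKM in stalk, so that the groups did not overlap in it, although tip replicate 3 and stalk replicate 2 were close. The next row held 6.48 RPKM in tip replicate 3, against 0.577 and 0.272 RPKM in tip replicates 1 and 2 and 0.266 to 1.23 RPKM in stalk. Spc25 had 9 rows, of which the most abundant held 19.7, 13.9 and 20.4 RPKM in tip and 4.99, 10.4 and 10.5 RPKM in stalk. Its next row held 8.01, 8.47 and 8.27 RPKM in tip and 7.08, 7.96 and 4.63 RPKM in stalk, a smaller difference between the group means.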
